A study of Mus musculus with 36 samples.

Results

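The genes of the extracellular matrix were followed in the liver of 36 adult male C57BL/6J mice. This is the strain as labelled, and the methods of the study name the substrain C57BL/6JOlaHsd. A gene was included when its name on the array marked it as a collagen, laminin, fibulin, matrix metalloproteinase (MMP) or tissue inhibitor of metalloproteinases (TIMP), or when it was Fn1, Fbn1, Lox, Loxl1, Loxl2, Sparc, Dcn, Lum, Bgn or Spon2. Of the 41174 non-control probes on the array, 163 probes of 90 gene names met this rule. The authors' table of expressed probes held 74 of them, for 54 genes, among 21781 probes. These 74 are called matrix probes below, although 3 of them are for Col4a3bp, which meets the name rule but is not a matrix gene. All mice first ate a mild-high-fat diet with 30% of energy as fat for 3 weeks, as labelled (the methods of the study give a shorter adaptation). Then 12 mice were sacrificed at once (t=0), 12 stayed on this diet for 12 weeks (HF, the control group), and 12 received it with 0.33% (w/w) quercetin, a plant flavonol, for 12 weeks (HF-Q, the quercetin group). All 36 mice were fasted for at least 2 hours before sacrifice. The comparison of HF-Q with HF asks what quercetin changed. HF and HF-Q differ from t=0 by 12 weeks of age as well as of feeding, and these cannot be told apart.

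The extracellular matrix of the liver is sparse. Fibrillar collagens form the fibres around the portal tracts and in the space of Disse, type IV collagen and laminins form basement membranes, and proteoglycans and matricellular proteins bind to these structures and to cells. Stellate cells and portal fibroblasts make most of the fibrillar collagen, whereas hepatocytes secrete plasma fibronectin. Lysyl oxidases crosslink the fibres, MMPs degrade them and TIMPs inhibit the MMPs. Values below are log2 normalised signals of the Cy5 channel, in which each mouse was labelled, so that a difference of 1 is a 2-fold change. Signals of different probes depend on the probe and were not ranked against each other. In whole liver RNA, fewer cells of a type and less RNA per cell cannot be told apart.

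A pair of arrays stood apart. HF replicate 5 carried transcripts of the pancreas: carboxypeptidase Cpb1 had a log2 signal of 22.13 in this mouse and at most 8.841 in the other 35, and the mean over 7 pancreatic genes was 19.03 against at most 9.424. On this array 23 of the 74 matrix probes lay above the highest and 7 below the lowest of the other HF mice. On HF-Q replicate 2, 96.7% of the spots were well above background, against 56.4% to 67.4% on the other 35 arrays, and 24 matrix probes lay above and 7 below all other HF-Q mice. Of these 24 probes, 17 were among the 27 dim probes, with a mean signal under 4 times the background. Both arrays were kept, and values without them are given where they matter. The 6 hepatocyte markers in the table, such as Alb1 and Apoa1, had mean log2 signals of 15.7 to 16.52 in all mice.

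Few matrix genes differed between the groups. Between HF-Q and HF, 4 of the 74 probes (5.41%) passed an adjusted p under 0.05, all lower in HF-Q, where 2.36% of all 21781 probes passed in either direction and 0.863% were lower. These were both probes of Spon2, 1 of Col4a1 and 1 of Col5a3. Spon2 was named singly in the rule, and the study had already reported it as lowered by quercetin in these same mice. The share of 5.41% rests in part on this choice and is not a result about matrix genes as a set. Between HF and t=0, 9 probes (12.2%) of 7 genes passed, 5 higher and 4 lower in HF, against 21.3% of all probes, with 10.9% higher and 10.4% lower. Mmp14, Timp2, Sparc and Col14a1 were higher, and Fn1, Lama3 and Col5a1 were lower. Between HF-Q and t=0, 2 probes (2.7%) passed against 11.9% of all probes, Col27a1 higher and Lama3 lower, where 6.62% of all probes were higher and 5.3% lower. Without HF-Q replicate 2, 5 probes passed in this comparison, against 12.7% of all probes: Col27a1 and Timp2 higher, at 0.35 and 0.39 (limma, adjusted p = 0.0259 and 0.019), and Lama3, Col7a1 and the dim probe of Col5a3 lower, at -0.31, -0.23 and -0.19 (limma, adjusted p = 0.0201, 0.0223 and 0.0337). In both comparisons with t=0 the share among the matrix probes was thus below that among all probes. The 3 comparisons share their mice in pairs and are not independent. In none of them did any of the 74 probes separate the groups without overlap, and this was not counted over all probes. The median absolute log2 difference was 0.0697 for the matrix probes and 0.0738 for all probes between HF-Q and HF, and 0.0889 and 0.109 between HF and t=0.

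**Figure D1:**
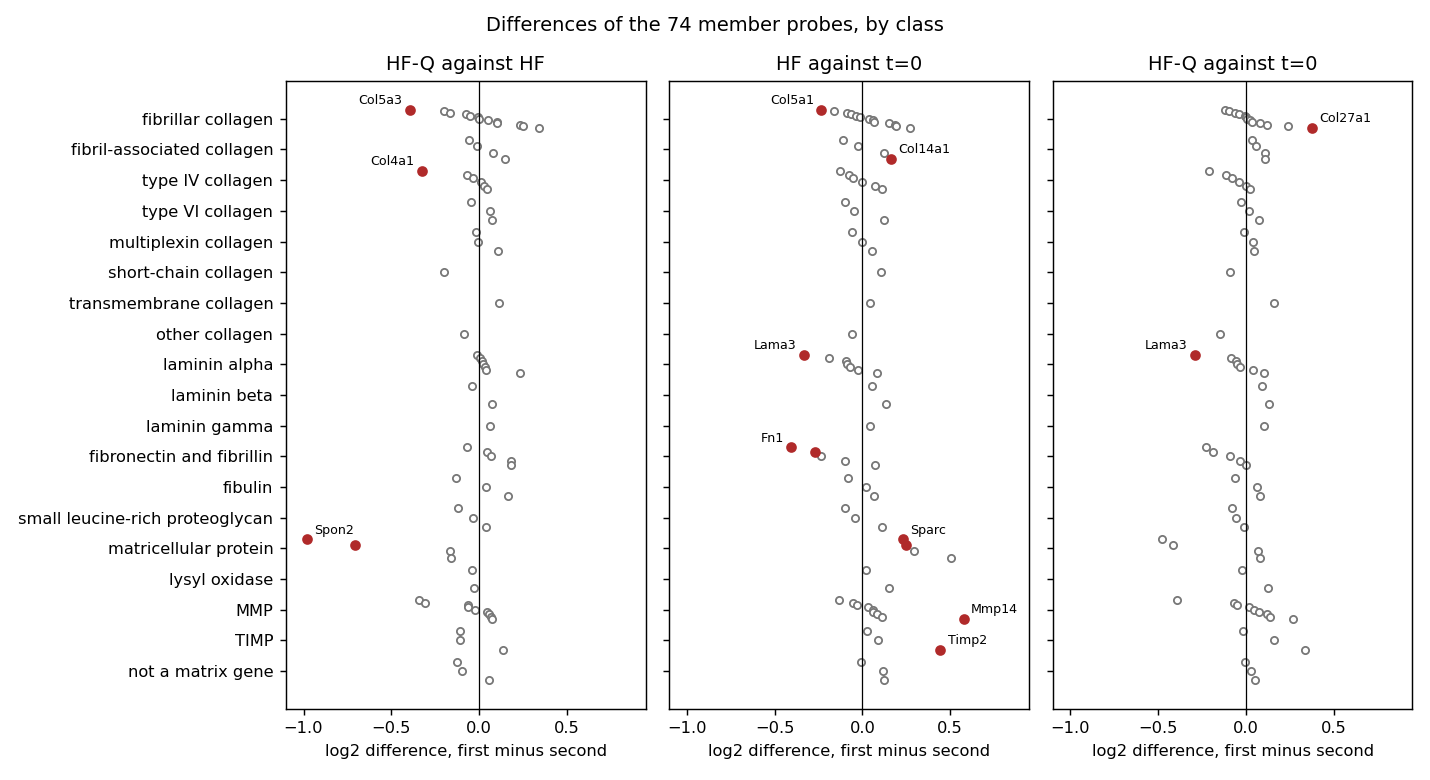
Log2 difference of each of the 74 probes that met the rule, by class (rows), in the 3 comparisons (panels). The row of the class that is not a matrix gene holds Col4a3bp. Each circle is a probe, filled red and named once per gene where the adjusted p was under 0.05. Most probes lie close to 0, and the 4 filled circles for HF-Q against HF are all on the lower side.

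Spon2, a secreted matrix protein of the F-spondin family that binds integrins and bacterial lipopolysaccharide, showed the largest difference of any matrix probe between the quercetin and the control group. On its brighter probe (chr5:33530825-33530884, mm8) the log2 signal ranged from 10.03 to 11.66 with a median of 10.93 in HF, and from 9.196 to 10.66 with a median of 9.854 in HF-Q. All 12 HF-Q mice lay below the HF median and 8 lay below every HF mouse, but the groups overlapped. The mean log2 difference was -0.98 ± 0.16 (SE, n = 12 per group), 1.98-fold lower in HF-Q (limma, adjusted p = 0.000977). The second probe (chr5:33531311-33531370, mm8) gave -0.71 ± 0.13 (limma, adjusted p = 0.00261), and on this probe 9 HF-Q mice lay below every HF mouse. Both probes were lower in HF-Q on 9 of 9 slides, with differences within a slide of -1.76 to -0.216 on the brighter one, and -0.89 with the slide as a block (limma, adjusted p = 0.0128). Without HF replicate 5, which had the lowest Spon2 signal of its group, the difference was -1.06 (limma, adjusted p = 0.000249).

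At t=0 Spon2 had the widest spread, with log2 signals of 9.395 to 11.14 and an SD of 0.607, against 0.418 in HF and 0.407 in HF-Q. This spread went with the replicate number. Replicates 1 to 6 at t=0 had signals of 10.34 to 11.14, and replicates 7 to 12 had 9.395 to 10.57. The labels do not say what the numbers stand for. The t=0 mice spanned much of the range of both other groups. HF was 0.51 ± 0.19 (SE) above t=0, which did not pass (limma, adjusted p = 0.0627), and without HF replicate 5 this became 0.58 and did (limma, adjusted p = 0.027). HF-Q was 0.475 below t=0 in mean log2 signal (difference -0.475 ± 0.193, limma, adjusted p = 0.108).

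**Figure D2:**
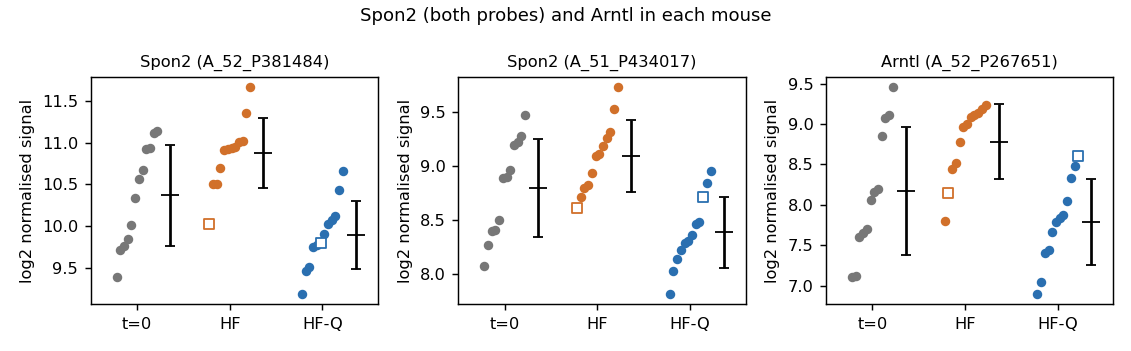
Log2 normalised signal of Spon2 on its 2 probes and of the clock gene Arntl in each mouse, by group; points are mice, the open square marks HF replicate 5 and HF-Q replicate 2, and the bar beside each group is the mean ± SD over 12 mice. The HF-Q mice lie mostly below the HF mice on both Spon2 probes, and the t=0 mice spread over both.

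The fibrillar collagens that make up most of the fibre mass did not pass the test in any comparison. Col1a1, a chain of type I collagen, had log2 signals of 7.963 to 9.144 (median 8.66) in HF, 7.957 to 9.12 (median 8.359) in HF-Q and 7.573 to 8.916 (median 8.523) at t=0. The groups overlapped almost fully, and HF-Q was -0.16 from HF, with a 95% interval of -0.461 to 0.135 (limma, adjusted p = 0.611). Col3a1, the chain of type III collagen, ranged from 10.8 to 11.68 (median 11.31) in HF, from 10.33 to 11.58 (median 11.1) in HF-Q and from 10.38 to 11.43 (median 11.17) at t=0. Its difference between HF-Q and HF was -0.20, with an interval of -0.432 to 0.0362 (limma, adjusted p = 0.41). Between HF and t=0 the differences of Col1a1 and Col3a1 were 0.19 and 0.19 (limma, adjusted p = 0.355 and 0.19). Col1a2, the partner chain of Col1a1, differed by -0.01 between HF-Q and HF, with an interval of -0.202 to 0.189. Differences within these intervals could not be told from none.

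Col5a3, a chain of type V collagen, which joins type I fibrils, was lower in HF-Q on its brighter probe. Its log2 signal ranged from 10.04 to 11.04 (median 10.76) in HF and from 9.837 to 10.71 (median 10.39) in HF-Q. The groups overlapped, although 8 HF mice lay above every HF-Q mouse. The difference was -0.39 ± 0.11 (SE; limma, adjusted p = 0.0471) and was lower on 7 of 9 slides, but with the slide as a block it was -0.36 and did not pass (limma, adjusted p = 0.124). The lowest HF value, 10.04, came from HF replicate 5. Without this mouse the difference was -0.46 (limma, adjusted p = 0.00695), and Col5a3 was also 0.34 above t=0 in HF (limma, adjusted p = 0.0195), against 0.27 with it (limma, adjusted p = 0.0831). A second, dim Col5a3 probe, well above background on 25 of 36 arrays, differed by 0.10 (limma, adjusted p = 0.753). On this probe HF-Q replicate 2 stood at 7.913, and the other HF-Q mice ran from 6.165 to 6.576. The medians were 6.384 in HF-Q and 6.387 in HF.

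Col4a1, the main chain of the type IV network of basement membranes, ranged from 8.721 to 9.204 (median 8.994) in HF and from 8.346 to 9.056 (median 8.664) in HF-Q. Of the 12 HF-Q mice, 7 lay below every HF mouse. This difference of -0.325 ± 0.083 (SE; limma, adjusted p = 0.0331) fell short with the slide as a block, at -0.29 (limma, adjusted p = 0.144), and without HF-Q replicate 2, at -0.30 (limma, adjusted p = 0.0581). The other Col4a1 probe differed by 0.01 (limma, adjusted p = 0.949). Col4a2 is transcribed head to head with Col4a1 from a shared promoter region: their promoter windows of 300 bases in RefSeq (GRCm38.p6; chr8:11312777-11313076 for Col4a1 and chr8:11312555-11312854 for Col4a2) overlap by 78 bases. Its 2 probes differed by -0.04 and 0.05 between HF-Q and HF (limma, adjusted p = 0.857 and 0.809).

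Col27a1, a fibrillar collagen known mainly from cartilage, was called higher in HF-Q than at t=0. On its brighter probe the log2 signal ranged from 7.797 to 8.479 (median 8.111) at t=0, from 7.694 to 8.547 (median 8.177) in HF and from 8.032 to 8.977 (median 8.556) in HF-Q. The HF-Q group overlapped both others, and 7 of its mice lay above every t=0 mouse. HF-Q exceeded t=0 by 0.38 ± 0.10 (SE; limma, adjusted p = 0.0159), on 9 of 9 slides. It exceeded HF by 0.34 ± 0.11, which did not pass (limma, adjusted p = 0.119). The second probe gave 0.24 against t=0 and 0.25 against HF (limma, adjusted p = 0.065 and 0.328).

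**Figure D3:**
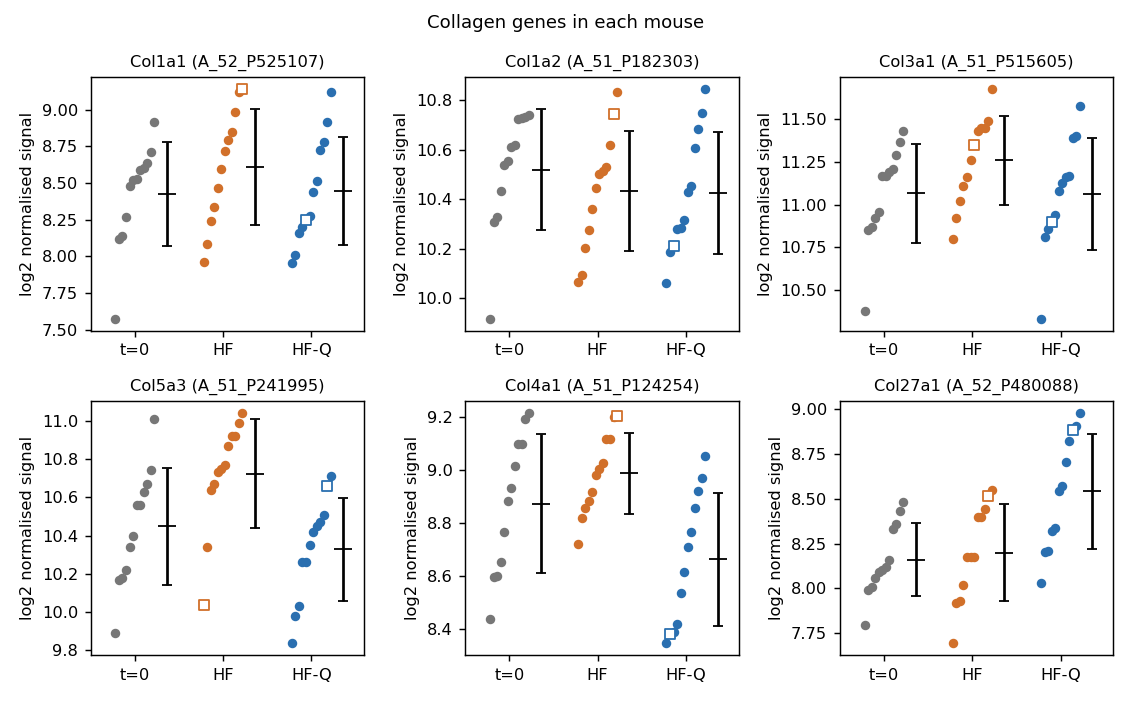
Log2 normalised signal of 6 collagen genes in each mouse, on the brightest probe of each gene, by group; points are mice, open squares mark HF replicate 5 and HF-Q replicate 2, and bars give the mean ± SD over 12 mice. The 3 groups overlap for Col1a1, Col1a2 and Col3a1, while Col5a3 and Col4a1 lie lower and Col27a1 higher in HF-Q, with overlap.

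Of the genes that degrade the matrix, Mmp14 stood out between HF and t=0. Mmp14 is a membrane-bound metalloproteinase that cleaves collagen and activates the proenzyme of Mmp2. Its brighter probe (chr14:53395337-53395396, mm8) had log2 signals of 10.11 to 11.13 (median 10.72) at t=0, 11 to 11.55 (median 11.31) in HF and 10.36 to 11.48 (median 11.06) in HF-Q. Of the 12 HF mice, 11 lay above every t=0 mouse, and the HF-Q mice spread over both. HF exceeded t=0 by 0.58 ± 0.10 (SE), or 1.49-fold (limma, adjusted p = 0.000203), on 9 of 9 slides, with 0.54 when the slide was a block (limma, adjusted p = 0.00246). HF-Q lay between the groups, 0.27 above t=0 (limma, adjusted p = 0.173) and at -0.31 from HF (limma, adjusted p = 0.118). The second, dim probe of Mmp14 differed by 0.11 between HF and t=0 (limma, adjusted p = 0.345).

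Timp2, which inhibits MMPs and also bridges Mmp14 to the proenzyme of Mmp2, ranged from 10.48 to 11.26 (median 10.93) at t=0, from 10.96 to 11.67 (median 11.36) in HF and from 10.67 to 11.69 (median 11.26) in HF-Q. Of the HF mice, 8 lay above every t=0 mouse. The difference of HF from t=0 was 0.445 ± 0.098 (SE), or 1.36-fold (limma, adjusted p = 0.00199), on 9 of 9 slides. HF-Q was 0.34 above t=0, just short of the threshold (limma, adjusted p = 0.0504), and -0.11 from HF (limma, adjusted p = 0.668). Mmp2 itself, a dim probe at 2.53 times its background, differed by -0.13 between HF and t=0 (limma, adjusted p = 0.167). The inhibitors Timp1 and Timp3 differed by 0.09 and 0.02 (limma, adjusted p = 0.217 and 0.855).

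Sparc, a collagen-binding glycoprotein of the matricellular group, was higher in HF on both its probes. On the brighter one, log2 signals ran from 10.63 to 11.2 (median 10.87) at t=0, from 10.96 to 11.34 (median 11.17) in HF and from 10.7 to 11.22 (median 11.02) in HF-Q. All 12 HF mice lay above the t=0 median and 6 lay above every t=0 mouse. The differences between HF and t=0 were 0.25 ± 0.06 on this probe and 0.23 ± 0.06 on the other (SE; limma, adjusted p = 0.00497 and 0.00384). Between HF-Q and HF they were -0.17 and -0.16 (limma, adjusted p = 0.191 and 0.246). Col14a1, a fibril-associated collagen, was 0.16 ± 0.06 (SE) higher in HF (limma, adjusted p = 0.0376), in a range of 11.4 to 11.84 against 11.28 to 11.58 at t=0. With the slide as a block the Col14a1 difference was 0.14 (limma, adjusted p = 0.132).

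The promoters of Mmp14, Timp2 and Sparc are shown because these were the genes higher in HF for which a RefSeq window was at hand. Of the 54 genes in the table, 39 had a window. Each line gives the 250 bases before the annotated start, 5′ to 3′ on the strand of the gene, in GRCm38.p6: chr14:54431348-54431597 (+) for Mmp14, chr11:118355412-118355661 (−) for Timp2 and chr11:55420081-55420330 (−) for Sparc. Capitals mark matches, on either strand, to CCAAT, the GC box GGGCGG or the Smad element CAGACA.
Mmp14: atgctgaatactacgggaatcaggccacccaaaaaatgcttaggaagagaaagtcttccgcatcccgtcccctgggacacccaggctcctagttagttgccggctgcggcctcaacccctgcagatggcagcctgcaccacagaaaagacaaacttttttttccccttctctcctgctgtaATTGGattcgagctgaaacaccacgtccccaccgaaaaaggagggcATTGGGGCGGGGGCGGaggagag
Timp2: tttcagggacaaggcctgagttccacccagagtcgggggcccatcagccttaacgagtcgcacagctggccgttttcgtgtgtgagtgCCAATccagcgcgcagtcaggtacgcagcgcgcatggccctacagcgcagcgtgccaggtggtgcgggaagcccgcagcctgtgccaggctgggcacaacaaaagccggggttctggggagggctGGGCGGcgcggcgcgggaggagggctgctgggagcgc
Sparc: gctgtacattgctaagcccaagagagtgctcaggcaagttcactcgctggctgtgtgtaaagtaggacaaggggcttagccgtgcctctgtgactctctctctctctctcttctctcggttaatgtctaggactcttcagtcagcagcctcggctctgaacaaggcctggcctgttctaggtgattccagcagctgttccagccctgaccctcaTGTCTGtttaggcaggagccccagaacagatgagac
The Mmp14 window held CCAAT 2 times, each in the reverse sense, and GGGCGG 2 times, with 1 CCAAT match overlapping a GC box. The Timp2 window held 1 CCAAT and 1 GGGCGG, and the Sparc window held 1 CAGACA, in the reverse sense. None of the 3 held TATAAA, the E-box CACGTG, the D-box TTANGTAA or the AP-1 site TGANTCA. Among all 32851 windows, 33.8% held CCAAT, 32.7% GGGCGG, 17.1% CAGACA, 12.4% TATAAA, 6.0% CACGTG, 2.1% TTANGTAA and 6.7% TGANTCA. Among the 44 windows of the genes in the table, 29.5% held CCAAT, 61.4% GGGCGG and 29.5% CAGACA. No motif of this set was thus held by all 3 windows, while those of Mmp14 and Timp2 both held CCAAT and GGGCGG.

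Fn1, the fibronectin gene, was lower after 12 weeks of HF. Its brightest probe, printed on 10 spots, had log2 signals of 12.15 to 12.72 (median 12.27) at t=0, 11.41 to 12.2 (median 11.98) in HF and 11.78 to 12.83 (median 11.99) in HF-Q. Of the HF mice, 11 lay below every t=0 mouse. The difference of HF from t=0 was -0.41 ± 0.08 (SE; limma, adjusted p = 0.000702), and that of a second probe was -0.27 ± 0.07 (limma, adjusted p = 0.00572). The other 2 probes differed by -0.23 and -0.10 (limma, adjusted p = 0.131 and 0.279), so that all 4 Fn1 probes had the same sign. HF-Q differed from t=0 by -0.23 on the brightest probe (limma, adjusted p = 0.105).

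Lama3, the alpha chain of an epithelial laminin, was lower than at t=0 in both other groups. Its brighter probe, at 3.11 times its background, ranged from 7.104 to 7.72 (median 7.451) at t=0, from 6.666 to 7.505 (median 7.057) in HF and from 6.685 to 7.445 (median 7.081) in HF-Q. The groups overlapped, with 7 HF and 7 HF-Q mice below every t=0 mouse. The differences were -0.33 ± 0.08 for HF and -0.29 ± 0.09 for HF-Q (SE; limma, adjusted p = 0.00578 and 0.0258), and with the slide as a block that of HF-Q was -0.28 (limma, adjusted p = 0.0754). The second probe gave -0.09 and -0.06 (limma, adjusted p = 0.265 and 0.487). Col5a1, another type V chain, was 0.24 lower in HF than at t=0 on a dim probe (difference -0.235 ± 0.071, limma, adjusted p = 0.0192), whereas its brighter probe differed by 0.15 (limma, adjusted p = 0.144). The Col5a1 probes thus disagreed in sign.

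**Figure D4:**
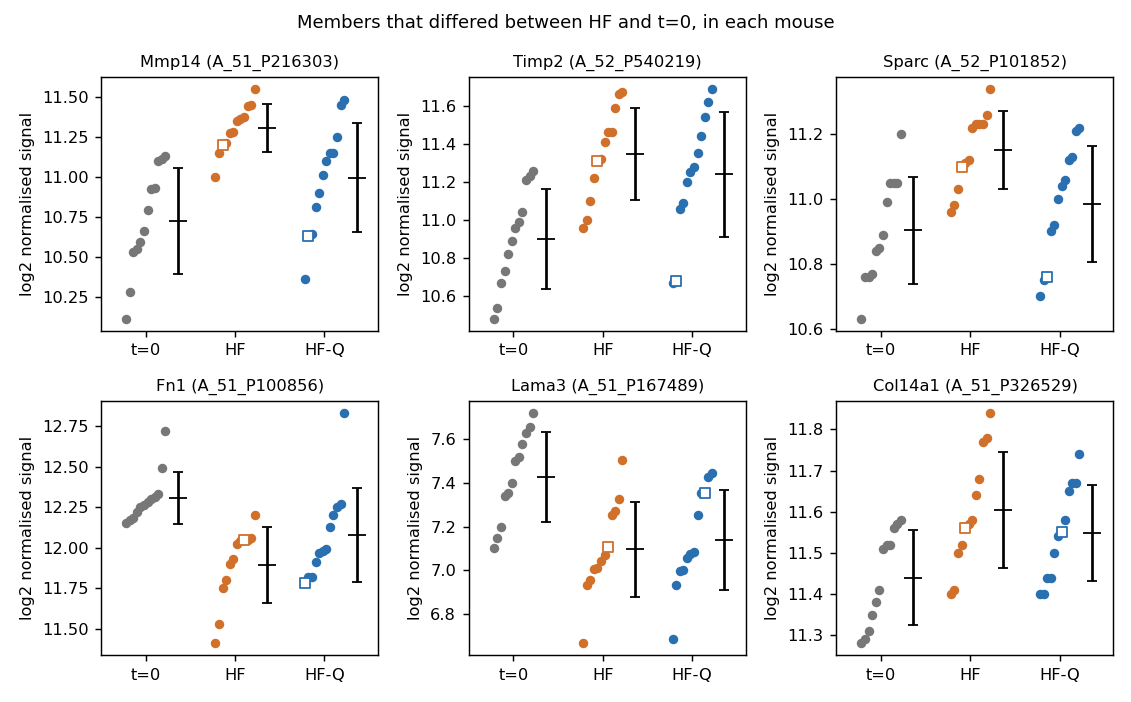
Log2 normalised signal of 6 matrix genes that differed between HF and t=0, on the brightest probe of each, in each mouse by group; points are mice, open squares mark HF replicate 5 and HF-Q replicate 2, and bars give the mean ± SD over 12 mice. For Mmp14, 11 of 12 HF mice lie above every t=0 mouse, and for Fn1, 11 of 12 lie below.

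In the remaining classes no gene was called, and the gene of the brightest probe stands for each. Col18a1 of the multiplexins, the source of endostatin, was measured at 1340 times background and differed by -0.01 between HF-Q and HF and by 0.06 between HF and t=0 (limma, adjusted p = 0.946 and 0.602). Dcn, a proteoglycan that binds collagen fibrils and TGF-beta, differed by -0.12 and 0.11 (limma, adjusted p = 0.478 and 0.35). Loxl2, a crosslinking oxidase, differed by -0.03 and 0.15 (limma, adjusted p = 0.919 and 0.284). Among the basement membrane genes, Lamb1-1 and Lamc1 differed from t=0 in HF by 0.13 and 0.04 (limma, adjusted p = 0.107 and 0.53). For Col6a3, which forms beaded filaments, Col8a1, Col13a1 and Fbln2 the differences between HF-Q and HF were -0.04, -0.20, 0.12 and -0.13 (limma, adjusted p = 0.856, 0.352, 0.422 and 0.435). Col4a3bp matches the name rule but encodes a ceramide transfer protein, and its 3 probes were not called either.

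Col7a1, the collagen of anchoring fibrils, depended on 1 mouse. Its log2 signal was 9.71 in HF replicate 5, the array with pancreatic transcripts, and 6.977 to 7.494 in the other 11 HF mice. With this mouse HF differed from t=0 by -0.06 (limma, adjusted p = 0.855), and without it by -0.27 (limma, adjusted p = 0.01). Lama5, a laminin alpha chain, was at 7.833 in the same mouse and 6.913 to 7.344 in the others. The part of the pancreatic RNA in these values was not tested. Without this mouse 12 matrix probes passed between HF and t=0, against 21.8% of all probes, and 4 passed between HF-Q and HF, against 2.49%.

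For 17 genes the table held more than 1 probe. Every probe of a gene had the same sign for 11 of the 17 between HF-Q and HF, 8 between HF and t=0 and 13 between HF-Q and t=0. Of the 3, 5 and 2 such genes called on any probe, 1, 1 and 0 were called on every probe: Spon2 and Sparc were these.

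The genes that make and process collagen chains were counted from a list of 17 in the table. Between HF and t=0, 5 were higher and 1 was lower, with a median log2 difference of 0.0947, against 10.9% and 10.4% of all probes. Those higher included P4ha2 and P4ha1, the prolyl hydroxylases that stabilise the triple helix, at 0.66 ± 0.09 and 0.40 ± 0.09 (SE; limma, adjusted p = 1.99e-05 and 0.00282), the collagen chaperone Serpinh1, at 0.61 ± 0.09 (limma, adjusted p = 2.16e-05), and Pcolce2, which enhances procollagen cleavage, at 0.42 ± 0.07 (limma, adjusted p = 0.000107). None of the 17 passed between HF-Q and HF. Between HF-Q and t=0, 4 were higher and 1 was lower, against 6.62% and 5.3% of all probes. Those higher were P4ha2, Pcolce2, Serpinh1 and P4ha1, at 0.64, 0.40, 0.435 and 0.235 (limma, adjusted p = 3.28e-05, 8.18e-05, 0.00273 and 0.0451). Bmp1, a procollagen proteinase, was lower, at -0.27 (limma, adjusted p = 0.00952). Of 17 other matrix proteins 5 were higher in HF than at t=0 and none lower, among them Efemp1 at 0.31 and Agrn at 0.225 (limma, adjusted p = 0.00942 and 0.0228).

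The signalling and receptor lists were read against the same shares of all probes, 10.9% higher and 10.4% lower in HF than at t=0. Of 18 genes of TGF-beta signalling, the main pathway that drives collagen genes, 1 was higher in HF than at t=0: Ltbp4, which stores latent TGF-beta in the matrix, at 0.25 ± 0.06 (SE; limma, adjusted p = 0.00607). None passed between HF-Q and HF. Of 5 PDGF ligands and receptors, which act on stellate cells, 3 were higher in HF, Pdgfa at 0.39, Pdgfd at 0.23 and Pdgfra at 0.18 (limma, adjusted p = 0.00151, 0.0173 and 0.0152). Pdgfa was also lower in HF-Q than in HF, at -0.35 ± 0.09 (limma, adjusted p = 0.0386), and without HF replicate 5 this was -0.305 (limma, adjusted p = 0.0521). Of 22 matrix receptors, 3 were higher and 1 was lower in HF than at t=0, with the collagen receptor Ddr1 at 0.41 and the integrin Itgb5 at 0.23 (limma, adjusted p = 0.00626 and 0.00471).

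Markers of other cells were counted against the same shares of all probes, 10.9% higher and 10.4% lower in HF than at t=0. Of 12 stellate and mesenchymal markers, 4 were called higher and 1 was called lower in HF than at t=0. In mean signal 10 of the 12 were higher, with a median log2 difference of 0.171. The mean of the list ran from 9.574 to 9.831 at t=0 and from 9.651 to 10.15 in HF, or to 9.89 without HF replicate 5. Of 6 cholangiocyte markers 4 were higher, Sox9 at 0.64 (limma, adjusted p = 0.00114), and the mean of the list ran from 8.628 to 9.371 at t=0, from 9 to 9.689 in HF and from 8.843 to 9.252 in HF-Q. Sox9 was 0.60 lower in HF-Q than in HF (difference -0.599, limma, adjusted p = 0.00053). Of 3 erythroid genes 2 were higher in HF than at t=0, Hbb-b1 at 1.07 and Hba-a1 at 0.93 (limma, adjusted p = 0.000308 for both), and the third, Alas2, was not higher. Between HF-Q and t=0, 2 of the 3 were called higher and 1 was called lower, against 6.62% and 5.3% of all probes. None of 8 Kupffer cell markers passed in any comparison, but all 8 had a higher mean than at t=0 in HF and in HF-Q, with median log2 differences of 0.294 and 0.272, and the mean of the list ran from 10.18 to 12.01 at t=0, from 10.89 to 11.92 in HF and from 10.88 to 11.66 in HF-Q. None of 4 proliferation markers passed either. Of the 6 hepatocyte markers, 1 was lower in HF than at t=0. In HF-Q 1 was lower than at t=0, where 5.3% of all probes were lower, and none passed between HF-Q and HF. Of 9 endothelial markers, Pecam1 was 0.34 lower in HF than at t=0 (difference -0.344, limma, adjusted p = 0.0036) and Cdh5 0.20 higher (limma, adjusted p = 0.0101). Between HF-Q and HF, 1 of the 9 was called higher, where 1.49% of all probes were higher. The part of these cell types in the differences of Mmp14, Timp2 and Sparc was not tested.

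Within each group, Col1a1, Col1a2 and Col3a1, the fibrillar collagens for which this was computed, varied together from mouse to mouse. Over the 12 mice, Col1a1 and Col1a2 correlated with a Pearson r of 0.949 at t=0, 0.939 in HF and 0.798 in HF-Q (Spearman rho 0.853, 0.937 and 0.769; permutation p = 2e-05, 4e-05 and 0.00253 for r and 0.00081, 7e-05 and 0.00482 for rho; adjusted over 15 relations 3e-04, 3e-04 and 0.00585 for r). Without the 2 mice farthest from the median of Col1a1, r was 0.891, 0.886 and 0.623. Col1a1 and Col3a1 gave an r of 0.784, 0.795 and 0.728 in the same order (rho 0.636, 0.769 and 0.839; permutation p = 0.00504, 0.00273 and 0.00586 for r and 0.0292, 0.00496 and 0.00096 for rho; adjusted 0.0084, 0.00585 and 0.00879 for r). Without the 2 farthest mice these were 0.627, 0.754 and 0.515. Col3a1 and Col1a2 gave 0.878, 0.825 and 0.658 (rho 0.804, 0.797 and 0.727; permutation p = 0.00081, 0.00123 and 0.0183 for r and 0.00225, 0.00297 and 0.00988 for rho; adjusted 0.00304, 0.00369 and 0.0249 for r), and 0.609, 0.76 and 0.75 without the farthest mice. A slide held at most 2 mice of a group, too few for a value within a slide.

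No relation between Spon2 and Col1a1 passed, with an r of 0.297 at t=0, -0.162 in HF and 0.345 in HF-Q (rho 0.217, -0.133 and 0.538; permutation p = 0.362, 0.622 and 0.273 for r and 0.499, 0.683 and 0.075 for rho; adjusted 0.388, 0.622 and 0.314 for r). Without the 2 farthest mice r was -0.0613, -0.137 and 0.578. It varied with Arntl, a core transcription factor of the circadian clock. The log2 signal of Arntl ranged from 7.101 to 9.452 (median 8.11) at t=0, from 7.803 to 9.229 (median 8.979) in HF and from 6.901 to 8.609 (median 7.812) in HF-Q. Like Spon2, Arntl was lower in HF-Q than in HF, at -0.998 ± 0.187 (SE; limma, adjusted p = 0.0034). Across mice, Spon2 and Arntl correlated with an r of 0.868 at t=0, 0.628 in HF and 0.76 in HF-Q (rho 0.902, 0.601 and 0.769; permutation p = 0.00043, 0.0297 and 0.00441 for r and 0.00019, 0.0434 and 0.00497 for rho; adjusted 0.00215, 0.0372 and 0.00827 for r, and 0.00142, 0.0542 and 0.00828 for rho). Without the 2 mice farthest from the median of Spon2, r was 0.869, 0.588 and 0.567. Arntl too was mostly higher in t=0 replicates 1 to 6, at 8.064 to 9.452, than in replicates 7 to 12, at 7.101 to 8.199. The permutations took the mice of a group as exchangeable, and the part of this order in the r at t=0 was not tested. The relation in HF did not pass without HF replicate 5, where r was 0.503 (permutation p = 0.121, adjusted 0.151). In HF-Q, r was 0.911 without HF-Q replicate 2 (permutation p = 0.00017, adjusted 0.00085).

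Other clock genes differed in the same comparison. Of 11 in the table, 4 were higher and 2 lower in HF-Q than in HF, against 1.49% and 0.863% of all probes: Tef and Dbp, at 0.63 and 0.92, and Clock, at -0.46 (limma, adjusted p = 0.00414, 0.00741 and 0.00437), beside Arntl. Arntl and Spon2 were chosen as a pair with earlier results of these data known. The part of the clock genes in the difference of Spon2 was not tested.

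**Figure D5:**
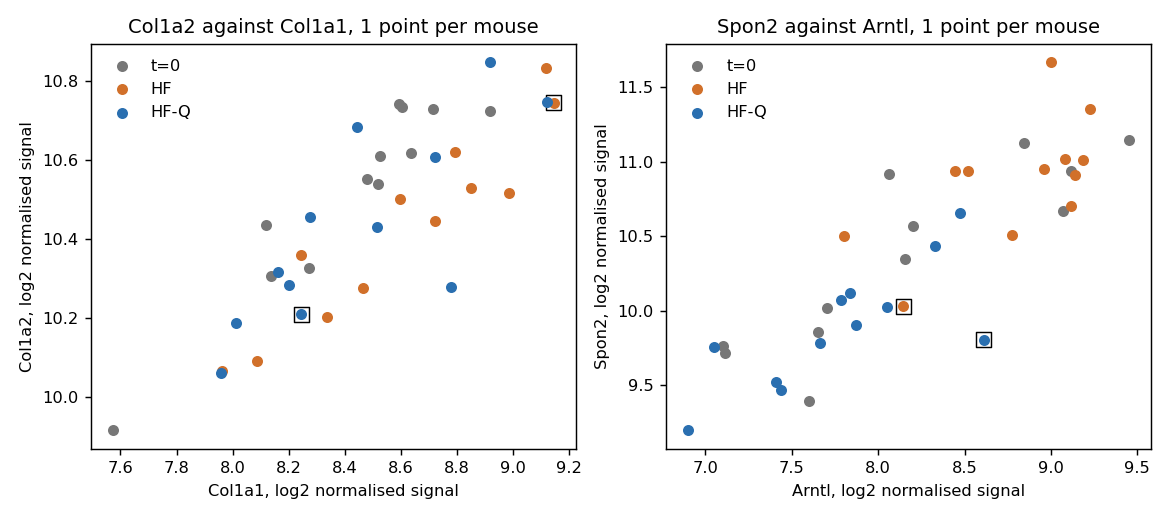
Left, log2 normalised signal of Col1a2 against Col1a1, and right, of Spon2 against Arntl; each point is a mouse, coloured by group, and squares mark HF replicate 5 and HF-Q replicate 2. Col1a2 rises with Col1a1 within each group, and Spon2 with Arntl at t=0 and in HF-Q, where HF-Q replicate 2 lies off the trend.

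The remaining 36 genes of the rule had no probe in the table. Among them were Mmp9, Mmp12, Mmp13, Timp4, Lox, Lama1 and Col5a2. Their probes had mean Cy5 signals of 1.16 to 2.48 times background, together with the off-table probes of the other genes, against 2.31 to 1340 times for the 74 probes in the table. Of these 89 off-table probes, 19 were well above background on most of the 36 arrays. A change of these genes was not measurable from the table.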

How the data were processed

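Total liver RNA of 36 mice was measured on 36 2-colour Agilent arrays, 4 per slide on 9 slides. Each array held 1 mouse in Cy5 and a pool of all samples in Cy3, with no dye swap. The submitters' processing notes name Agilent Feature Extraction 10.5.1.1. Per spot, the deposited scanner output holds the intensity of both dyes and of the local background. The deposited table holds log2 values that the authors normalised against Cy3, for 23256 spots whose signal over background, averaged over the arrays and both channels, exceeded 2. It followed log2(Cy5/Cy3) plus the mean Cy3 of the spot, with each array at a median of 8.961 (lowest correlation 0.99989), so no background was subtracted and differences of dim probes are compressed.

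The members, classes and lists were chosen with earlier results of these data known. A list of 7 pancreatic genes was added after the arrays were seen. Table values were joined by feature number, spots of a probe averaged, and 2 groups at a time (24 arrays) fitted with limma 3.58.1 in R 4.3.3, with Benjamini-Hochberg adjustment over 21781 probes. Of genes with several probes the brightest is given. Named were Col1a1, Col3a1, Spon2, each member called (up to 12 per comparison), otherwise the gene of a class's brightest probe, Arntl, and up to 4 called genes per list and comparison. Correlations used 100000 two-sided permutations within groups of 12 mice. The fit was tested on simulated data. Probe positions are mm8, from the scanner files. Mouse numbers did not pair the mice. Mice are taken as separate animals from the labels, and the number of arrays limits the precision.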

Additional observations from a re-analysis of the deposited data

How the results depend on the processing

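The number of matrix probes called ranged from 2 to 5 over 15 alternatives for HF-Q against HF, from 7 to 14 over 13 for HF against t=0, and from 2 to 5 over 13 for HF-Q against t=0. For HF-Q against HF it was 2 with all non-control probes and no filter on dim probes, 2 with the slide as a fixed block and 2 with the methods' t-test, in each case both Spon2 probes. For HF against t=0 it was 14 with array weights. For HF-Q against t=0 it was 5 with the Feature Extraction processed signals, 5 without HF-Q replicate 2 and 4 with array weights. Spon2 stayed lower in HF-Q than in HF, and Mmp14, Timp2, Sparc and Fn1 kept their calls between HF and t=0, under every alternative run. Col4a1 was called in 8 of 15 and Col5a3 in 7 of 15, Col5a1 in 7 of 12 and Col14a1 in 7 of 13. Lama3 lost its call for HF-Q against t=0 with the slide as a block. Col5a1 was at -0.0842 between HF and t=0 with loess values without background correction. Col3a1 for HF-Q against t=0, near 0, changed sign to 0.0114 with normexp and loess values with or without the filter, 0.0504 with the slide as a block, 0.00988 without HF-Q replicate 2 and 0.0529 with array weights. Without HF replicate 5, a choice made after seeing the data, the r of Col1a1 and Spon2 in HF turned from -0.162 to 0.159 and that of Spon2 and Arntl in HF fell to 0.503. Centring each array on its median left the table almost as it was. Class medians were computed again only with normexp and loess values, with this centring, and without HF-Q replicate 2 or HF replicate 5. None moved by more than the SD between mice of the class mean. This limit is wide, since leaving out 1 of 12 mice, or this centring, can hardly shift a class median that far. The causes were not tested.

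The mice share replicate numbers between groups, but the deviations of same-numbered mice correlated with medians of -0.00971, 0.0606 and 0.0327 over 12 pairs in the 3 comparisons, in the order HF-Q against HF, HF against t=0, HF-Q against t=0, and 2, 3 and 1 of 12 mice matched their own number best. With the replicate block 3, 11 and 3 probes were called. The arrays limit what can be seen: 27 of the 74 probes had a mean signal under 4 times background.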

Other observations

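Mmp19 had a log2 signal of 4.099 on the array of HF-Q replicate 4, where the scanner had marked its spot as an outlier, and 7.56 to 8.187 on the other 11 HF-Q arrays. With this array the difference of HF-Q from HF was -0.34 ± 0.29 (SE; limma, adjusted p = 0.592), and without it, a choice made after seeing the data, -0.03 ± 0.07 (limma, adjusted p = 0.862).

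On HF replicate 5 the lipase Pnlip had a log2 signal of 20.22 and insulin Ins2 one of 10.09, and 120 probes of the table lay over 2 log2 units above the mean of the other HF mice. Col7a1 was the 1 matrix probe among them.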
